A study of Mus musculus with 10 samples.

Results

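The genes of the translation initiation factors eIF1 to eIF6 were followed in RNA of melanoma tumours from exercised and non-exercised male mice. Members were the probe sets, the groups of array probes that report 1 transcript, whose single gene symbol in the platform annotation begins with Eif and a digit from 1 to 6. The eIF2 kinases (Eif2ak) and the genes of the eIF2 gamma subunit (Eif2s3) were left out by that rule. This gave 52 of 35556 probe sets and 43 of 19938 genes. The rule reads gene symbols and no measured value, though this family was picked with earlier results of these data known. Eif1, Eif2s1, Eif4ebp3 and Eif4g1, which were looked for by name, had no probe set with a single symbol and are not analysed here, so the alpha subunit of eIF2 and the main eIF4G scaffold are not described.

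Translation initiation brings the small ribosomal subunit, the initiator tRNA and the start codon of an mRNA together. eIF2 carries the initiator tRNA with GTP, and eIF2B recharges eIF2 with GTP after each round, a step that the integrated stress response blocks. eIF3 is the large scaffold on the small subunit, eIF4F binds the mRNA cap and unwinds the leader, and eIF1, eIF1A and eIF5 select the start codon before eIF5B joins the large subunit. Tumours commonly depend on the cap-binding step, which mTORC1 controls through the eIF4E-binding proteins.

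The groups were 5 Exercise and 5 non-Exercise arrays of melanoma tumour RNA, and all were labelled male. No treatment, genotype or agent other than exercise is named in the labels. The title of the series names voluntary exercise. No source used here names the strain, the age, the tumour line, or the form and length of the exercise. The number in each title is used as the name of the array, and since the labels do not say that it marks an animal, p-values measure the spread between these samples. Levels are on the deposited scale, taken as log2 from its range, after quantile normalization. Values per array are given in the order 300, 301, 306, 309 and 310 for Exercise and 326, 327, 329, 330 and 331 for non-Exercise. A change is the Exercise mean less the non-Exercise mean, followed by its standard error (SE) after ±. A gene passed at a Benjamini-Hochberg adjusted p under 0.05 in limma over all 19938 genes. The number of arrays limits the precision. All 7 melanocytic markers (Mlana, Pmel, Tyr, Tyrp1, Dct, Mitf and Sox10) were bright, their mean lay between 12.94 and 13.07 in Exercise tumours and between 12.94 and 13.06 in non-Exercise ones, and none passed. Tyr and Sox10 had the largest changes of the 7, at -0.17 and -0.14 (limma adjusted p = 0.0598 and 0.0935). Arrays 306, 309 and 310 of the Exercise group stood apart by hepatocyte transcripts: the mean of 11 measured hepatocyte markers was 9.69 to 10.28 in them, 7.88 and 7.99 in the other two Exercise arrays, and 7.90 to 8.33 in the non-Exercise arrays. Results are therefore also given without these 3 arrays.

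Initiation factor mRNAs changed little in size, and most of those that changed were lower in the tumours of exercised mice. Of the 43 genes, 12 fell, 1 rose and 30 did not pass. The genes that fell were Eif3f, Eif3c and Eif3h of eIF3, Eif2b2 and Eif2b4 of eIF2B, Eif2s2 of eIF2, Eif4b, the eIF4E-binding protein gene Eif4ebp2, Eif1b, Eif1ad, Eif5b and Eif5a2. The gene that rose was Eif4a2, an RNA helicase of the cap-binding complex. The 12 lower genes changed by -0.15 to -0.37, or 1.11-fold to 1.30-fold, and the 30 that did not pass lay between -0.19 and 0.13. Fewer cells of a type and less RNA per cell cannot be told apart in whole-tumour RNA.

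In either direction 13 of the 43 genes passed, where 17.0% of all genes did. The 12 lower genes are 27.9% of the 43, where 10.6% of all genes were called lower. The 1 higher gene is 2.33% of the 43, where 6.35% of all genes were called higher. Initiation factors gave strong signals: 34 of the 43 lay in the brightest 25% of all genes, and 9 of these 34 were lower (26.5%), against 17.9% of the whole brightest 25%. The median change of the 43 genes was -0.054, against -0.024 over all genes. The groups were fully separated with Exercise lower for 4 members, Eif3f, Eif3c, Eif4b and Eif2s2, which is 9.30% and near the 8.33% of all genes. They were separated with Exercise higher for 1 member, Eif4g3, which is 2.33% against 3.74% of all genes. When every probe set was fitted on its own, 12 of the 52 member probe sets were lower and 1 was higher, where 6.40% and 4.76% of all probe sets were lower and higher. These 12 are not the same set as the 12 genes. Eif2b2 and Eif5b did not pass there (limma adjusted p = 0.0507 and 0.0697 over all probe sets), while both probe sets of Eif2s2 and the dimmer one of Eif3m were counted. With arrays centred on their medians, 16 members were lower and none higher (1 at an unadjusted p under 0.05 in limma, where 15.4% of all genes were lower and 4.70% higher). The change of Eif4a2 was then 0.26. In the table as deposited 11 members were lower and 1 higher, where 10.4% and 6.87% of all genes were. The count of 12 lower genes was 7 (16.3%) without non-Exercise array 326, where 7.20% of all genes were lower. It was 5 (11.6%) without non-Exercise array 327 or 329, where 7.44% of all genes were lower in each case. All the genes counted in these fits were among the 12. The call of Eif4a2, and with it the count of 1 higher gene, went to 0 after removal of tumour 300, 309 or 310 of the Exercise group, or of tumour 326, 327, 330 or 331 of the non-Exercise group.

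**Figure D1:**
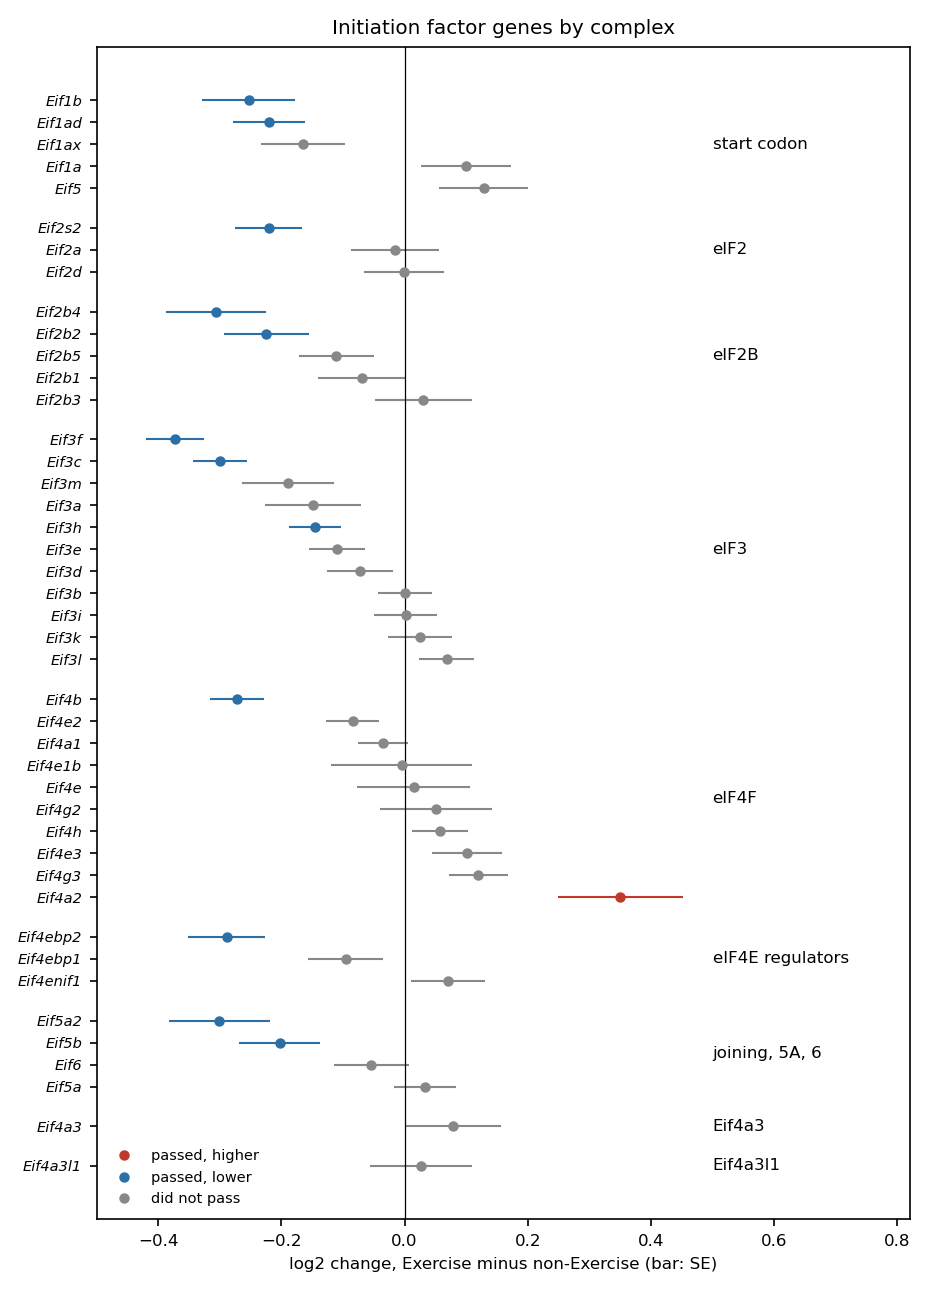
The log2 change of each of the 43 genes (horizontal axis, Exercise minus non-Exercise, with SE bars) is drawn by factor complex, with genes that passed in colour. The 12 lower genes are spread over eIF3, eIF2, eIF2B, eIF4F, the eIF4E regulators, the start codon group and the joining factors. Eif4a2 alone passed on the higher side.

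Among the genes grouped here as start codon factors, 2 of 5 fell and none rose. Counts by complex, here and below, stand beside the 10.6% of all genes that fell and the 6.35% that rose. Each complex holds few genes, and whether any of them differs from these shares was not tested. Eif1b, a close homologue of the start codon selector eIF1, lay at 10.89, 10.88, 10.74, 10.53 and 10.84 in Exercise tumours, against 11.10, 11.08, 10.98, 10.86 and 11.12 in non-Exercise tumours. The Exercise arrays were low, with array 309 lowest, while array 330 of the non-Exercise group lay within their range. The change was -0.25 ± 0.075 (limma adjusted p = 0.0333), and it did not pass after removal of Exercise tumour 306 or 309 or of non-Exercise tumour 326, 327, 329 or 331 (log2 change -0.29 to -0.19, adjusted p 0.0247 to 0.0872 over all such removals). Eif1ad, which encodes a protein with an eIF1A-like domain, lay at 10.83, 10.76, 10.74, 10.73 and 10.68 in Exercise tumours, against 10.91, 11.01, 11.09, 10.99 and 10.83 in non-Exercise tumours. Here only Exercise array 300, at 10.833, reached the lowest non-Exercise array, 331, at 10.832. The change was -0.22 ± 0.059 (limma adjusted p = 0.0194), and it did not pass after removal of non-Exercise tumour 327 or 329 (log2 change -0.25 to -0.19, adjusted p 0.00909 to 0.0598 over all such removals). Eif5, which encodes the GTPase activator of eIF2, lay at 11.96, 11.80, 11.59, 11.63 and 11.72 in Exercise tumours, against 11.54, 11.58, 11.59, 11.56 and 11.79 in non-Exercise tumours. The groups overlapped and the change of 0.13 ± 0.072 did not pass (limma adjusted p = 0.268). The eIF1A genes Eif1ax and Eif1a did not pass either, at -0.17 and 0.10. Eif1ax was lower with a call when Exercise array 300, its single high array, was left out (-0.22, limma adjusted p = 0.0199).

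Of 3 genes that deliver the initiator tRNA, Eif2s2 alone fell. It encodes the beta subunit of eIF2 and lay at 11.20, 11.06, 11.05, 10.98 and 11.06 in Exercise tumours, against 11.26, 11.36, 11.35, 11.26 and 11.22 in non-Exercise tumours. Every Exercise array was below every non-Exercise array, by the narrowest margin for array 300. The change was -0.22 ± 0.054 (limma adjusted p = 0.0131), and it still passed after removal of any 1 array (log2 change -0.25 to -0.20, adjusted p 0.00696 to 0.0421). A second probe set of Eif2s2 changed by -0.32 ± 0.071 (limma adjusted p = 0.0100 over all probe sets). Eif2a and Eif2d, which encode factors that can deliver initiator tRNA in place of eIF2, had changes of -0.016 and -0.00076 and did not pass.

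The exchange factor eIF2B is built of alpha, beta, gamma, delta and epsilon subunits, encoded by Eif2b1 to Eif2b5, and 2 of these 5 genes fell. Eif2b4, which encodes the delta subunit, lay at 9.78, 9.73, 9.97, 9.73 and 9.73 in Exercise tumours, against 10.20, 10.24, 10.16, 9.95 and 9.91 in non-Exercise tumours. Of the Exercise arrays 4 lay close together below all non-Exercise arrays, and array 306 was higher than non-Exercise arrays 330 and 331. The change was -0.31 ± 0.081 (limma adjusted p = 0.0190), and it did not pass after removal of non-Exercise tumour 326, 327 or 329 (log2 change -0.35 to -0.27, adjusted p 0.00897 to 0.0582 over all such removals). Eif2b2, which encodes the beta subunit, lay at 11.55, 11.70, 11.85, 11.61 and 11.48 in Exercise tumours, against 11.84, 11.93, 11.94, 11.89 and 11.72 in non-Exercise tumours. Array 306 again lay among the non-Exercise values. The change was -0.22 ± 0.069 (limma adjusted p = 0.0373), and it did not pass after removal of Exercise tumour 300, 309 or 310 or of non-Exercise tumour 326, 327, 329 or 330 (log2 change -0.28 to -0.18, adjusted p 0.00791 to 0.0951 over all such removals). Eif2b5, which encodes the catalytic epsilon subunit, lay at 10.50, 10.65, 10.67, 10.58 and 10.39 in Exercise tumours, against 10.71, 10.64, 10.63, 10.68 and 10.69 in non-Exercise tumours. Its groups overlapped and the change of -0.11 ± 0.061 did not pass (limma adjusted p = 0.261, 95% interval -0.24 to 0.021). Eif2b1 (alpha) and Eif2b3 (gamma) had changes of -0.070 and 0.030 that did not pass.

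In eIF3, 3 of 11 genes fell and none rose, where 10.6% of all genes fell and 6.35% rose. The 2 lower genes with the smallest p of all members were here. Eif3f, which encodes a subunit with an MPN domain, lay at 12.34, 12.49, 12.51, 12.39 and 12.34 in Exercise tumours, against 12.81, 12.82, 12.83, 12.76 and 12.70 in non-Exercise tumours. The groups were separated, with the highest Exercise array, 306, below the lowest non-Exercise array, 331. Eif3f was 1.30-fold lower, a change of -0.37 ± 0.047 (limma adjusted p = 0.000259), and it still passed after removal of any 1 array (log2 change -0.40 to -0.35, adjusted p 0.000226 to 0.00144). Eif3c, which encodes a core subunit with a PCI domain, lay at 12.38, 12.44, 12.39, 12.44 and 12.29 in Exercise tumours, against 12.67, 12.61, 12.68, 12.74 and 12.73 in non-Exercise tumours. The Exercise arrays were again all below the non-Exercise arrays. Eif3c was 1.23-fold lower, a change of -0.30 ± 0.044 (limma adjusted p = 0.000558), and it still passed after removal of any 1 array (log2 change -0.32 to -0.28, adjusted p 0.000665 to 0.00245). Eif3h, the other subunit with an MPN domain, averaged 12.47 ± 0.062 in Exercise tumours, against 12.62 ± 0.044 in non-Exercise tumours (SD, n = 5 each). Exercise array 306 just reached the lowest non-Exercise array, 331. The Eif3h change was -0.15 ± 0.042 (limma adjusted p = 0.0301), and it did not pass after removal of Exercise tumour 300, 309 or 310 or of non-Exercise tumour 326, 327, 329 or 330 (log2 change -0.16 to -0.12, adjusted p 0.0206 to 0.0747 over all such removals).

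Eif3a, the largest subunit and the base of the complex, lay at 10.91, 11.00, 10.81, 10.64 and 11.00 in Exercise tumours, against 10.92, 11.13, 11.17, 10.93 and 10.95 in non-Exercise tumours. Its groups overlapped, and the change of -0.15 ± 0.078 did not pass (limma adjusted p = 0.232, 95% interval -0.32 to 0.019). The genes of the 8 subunits with PCI or MPN domains (Eif3a, Eif3c, Eif3e, Eif3f, Eif3h, Eif3k, Eif3l and Eif3m) held all 3 calls and ranged from -0.37 to 0.068. The other measured subunits, Eif3b, Eif3d and Eif3i, ranged from -0.073 to 0.0014 and none passed. Whether these parts of the complex differ was not tested. Eif3m depended on the probe set: the brighter one had a change of -0.19 ± 0.075, short of the threshold (limma adjusted p = 0.130 over all probe sets), while the other changed by -0.36 ± 0.083 and passed (limma adjusted p = 0.0138 over all probe sets). Eif3e (-0.11) and Eif3m, like Eif1ax and Eif4e2 outside eIF3, were lower with a call when arrays were centred on their medians.

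**Figure D2:**
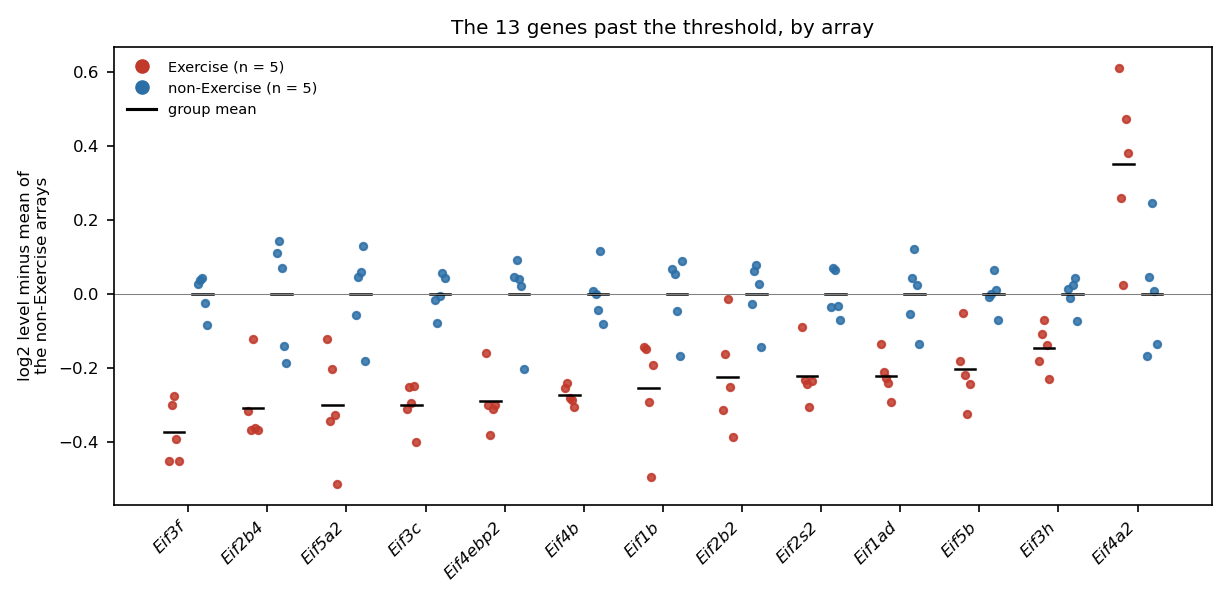
Each point is 1 array of the 13 genes that passed, drawn as its log2 level minus the mean of the non-Exercise arrays (vertical axis), with Exercise left of non-Exercise and bars at the group means. Eif3f, Eif3c, Eif4b and Eif2s2 show no overlap of the groups, and the Exercise arrays of Eif4a2 are the most spread, from 11.34 to 11.93.

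In the cap-binding complex eIF4F and its partners, 1 of 10 genes rose and 1 fell. Eif4a2, an RNA helicase that unwinds the leader of the mRNA, lay at 11.93, 11.57, 11.34, 11.79 and 11.70 in Exercise tumours, against 11.15, 11.36, 11.56, 11.32 and 11.18 in non-Exercise tumours. Exercise tumours were high except 306, which lay among the non-Exercise values. Eif4a2 was 1.27-fold higher, a change of 0.35 ± 0.10 (limma adjusted p = 0.0289), and it did not pass after removal of Exercise tumour 300, 309 or 310 or of non-Exercise tumour 326, 327, 330 or 331 (log2 change 0.28 to 0.43, adjusted p 0.00528 to 0.0808 over all such removals). Eif4a1, the more general helicase of the same pair, lay at 13.33, 13.31, 13.32, 13.29 and 13.31 in Exercise tumours, against 13.36, 13.45, 13.38, 13.33 and 13.23 in non-Exercise tumours. The groups overlapped within a narrow range, and the change of -0.035 ± 0.040 did not pass (limma adjusted p = 0.654, 95% interval -0.12 to 0.051). Its other two probe sets changed by 0.022 and 0.020 and did not pass.

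Eif4b, which encodes the cofactor that stimulates the helicase, lay at 12.27, 12.29, 12.24, 12.24 and 12.22 in Exercise tumours, against 12.53, 12.52, 12.48, 12.64 and 12.44 in non-Exercise tumours. The Exercise arrays were tightly grouped and all below the non-Exercise arrays. Eif4b was 1.21-fold lower, a change of -0.27 ± 0.044 (limma adjusted p = 0.00105), and it still passed after removal of any 1 array (log2 change -0.29 to -0.24, adjusted p 0.00104 to 0.00450). Eif4h, a relative of Eif4b with a similar role, had a change of 0.057 that did not pass. Eif4e, the cap-binding protein itself, lay at 10.14, 10.18, 9.98, 9.69 and 10.15 in Exercise tumours, against 10.06, 10.09, 10.07, 9.85 and 9.99 in non-Exercise tumours. The groups overlapped, and the change of 0.015 ± 0.092 did not pass (limma adjusted p = 0.954, 95% interval -0.18 to 0.21). The other two probe sets of Eif4e changed by 0.11 and -0.020 and did not pass. The cap-binding homologues Eif4e2 (-0.084), Eif4e3 (0.10) and Eif4e1b (-0.0047) and the scaffold homologues Eif4g2 (0.051) and Eif4g3 (0.12) did not pass. Eif4g3 was above all non-Exercise arrays in every Exercise array, at 11.00 to 11.07 against 10.84 to 10.99, and missed the threshold (limma adjusted p = 0.107).

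Of 3 genes that restrain eIF4E, Eif4ebp2 fell. It encodes a binding protein that, like its homologue from Eif4ebp1, blocks the cap-binding complex until mTORC1 phosphorylates it. Eif4ebp2 lay at 11.51, 11.37, 11.29, 11.36 and 11.37 in Exercise tumours, against 11.72, 11.76, 11.71, 11.69 and 11.47 in non-Exercise tumours. Exercise array 300 was the only one to reach the non-Exercise values, above array 331, which was itself far below the other non-Exercise arrays. Eif4ebp2 was 1.22-fold lower, a change of -0.29 ± 0.062 (limma adjusted p = 0.00607), and it still passed after removal of any 1 array (log2 change -0.34 to -0.27, adjusted p 0.00127 to 0.0213). Eif4ebp1 lay at 12.12, 12.35, 12.25, 12.09 and 12.10 in Exercise tumours, against 12.16, 12.29, 12.30, 12.23 and 12.42 in non-Exercise tumours. Its groups overlapped and the change of -0.10 ± 0.062 did not pass (limma adjusted p = 0.347, 95% interval -0.23 to 0.036). Eif4enif1, which encodes the nuclear importer and repressor of eIF4E, had a change of 0.071 that did not pass.

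Of 4 genes that act at subunit joining, in elongation or in ribosome assembly, 2 fell. Eif5a2, a homologue of the hypusine-bearing factor eIF5A, lay at 10.15, 9.93, 10.07, 9.95 and 9.76 in Exercise tumours, against 10.22, 10.32, 10.33, 10.40 and 10.09 in non-Exercise tumours. Only Exercise array 300 exceeded the lowest non-Exercise array, 331. Eif5a2 was 1.23-fold lower, a change of -0.30 ± 0.082 (limma adjusted p = 0.0221), and it did not pass after removal of non-Exercise tumour 327, 329 or 330 (log2 change -0.35 to -0.25, adjusted p 0.0119 to 0.0620 over all such removals). Eif5b, the GTPase that joins the subunits, lay at 9.64, 9.77, 9.60, 9.49 and 9.57 in Exercise tumours, against 9.81, 9.82, 9.88, 9.83 and 9.75 in non-Exercise tumours. Exercise array 301 overlapped with non-Exercise array 331. The change was -0.20 ± 0.066 (limma adjusted p = 0.0486), and it did not pass after removal of Exercise tumour 300, 306, 309 or 310 or of non-Exercise tumour 326, 327, 329 or 330 (log2 change -0.24 to -0.17, adjusted p 0.0254 to 0.123 over all such removals).

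Eif5a, which encodes the abundant eIF5A that helps ribosomes over difficult peptide bonds, lay at 12.73, 12.68, 12.75, 12.63 and 12.68 in Exercise tumours, against 12.66, 12.76, 12.76, 12.60 and 12.52 in non-Exercise tumours. The groups overlapped and the change of 0.033 ± 0.050 did not pass (limma adjusted p = 0.759, 95% interval -0.075 to 0.14). Its dimmer probe set changed by -0.14 and did not pass. Eif6, which keeps the large subunit from joining too early, lay at 12.55, 12.60, 12.82, 12.64 and 12.43 in Exercise tumours, against 12.60, 12.71, 12.72, 12.64 and 12.65 in non-Exercise tumours. It did not pass, at -0.054 ± 0.060 (limma adjusted p = 0.644). Eif4a3, the helicase of the exon junction complex, and its copy Eif4a3l1 had changes of 0.078 and 0.026 that did not pass.

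Several members are pairs of paralogues with near roles, and 8 such pairs are given by the difference of their log2 changes. The pairs were chosen after the values had been seen, and some share a gene, so the differences are a description and no p-value is given for them. Eif4a2 minus Eif4a1 was 0.39 (0.32 to 0.47 after removal of any 1 array), and the log2 ratios of the groups overlapped. Eif5a2 minus Eif5a was -0.33 (-0.37 to -0.28), Eif1ax minus Eif1a was -0.27 (-0.29 to -0.24), and Eif4e3 minus Eif4e2 was 0.19 (0.16 to 0.20). In these last 3 pairs the log2 ratio of every Exercise array lay on one side of every non-Exercise array. Of the genes in these 3 pairs Eif5a2 alone had passed. For Eif5a2 and Eif5a the separation depended on the probe set. With the dimmer Eif5a probe set, the ratio of Exercise array 300 lay among the non-Exercise ratios. With the mean of the probe sets of a gene, Eif5a2 minus Eif5a was -0.25. Eif4ebp2 minus Eif4ebp1 was -0.19, and -0.28 without non-Exercise array 331. Eif4g3 minus Eif4g2 was 0.069, Eif4e2 minus Eif4e was -0.10 and Eif4e3 minus Eif4e was 0.087. Without Exercise arrays 306, 309 and 310 the differences were 0.46 for Eif4a2 and Eif4a1, -0.28 for Eif5a2 and Eif5a, -0.32 for Eif1ax and Eif1a, and 0.11 for Eif4e3 and Eif4e2.

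**Figure D3:**
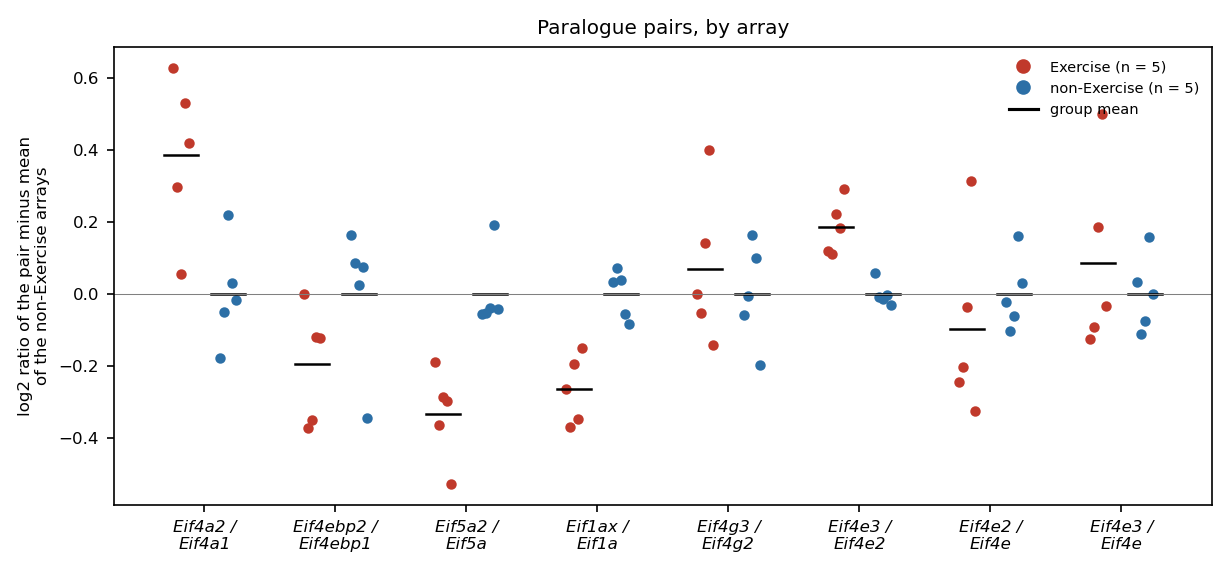
For 8 paralogue pairs, the log2 ratio of the first gene over the second is drawn per array, minus the mean of the non-Exercise arrays (vertical axis), with Exercise left of non-Exercise and bars at the group means, as a description of pairs chosen after their values were seen. With the brightest probe set of each gene, Eif5a2 over Eif5a and Eif1ax over Eif1a are lower, and Eif4e3 over Eif4e2 is higher, in every Exercise array.

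Since genes of several complexes were lower together, their promoters are shown as far as RefSeq windows (GRCm38.p6, 250 bases before to 50 after the transcript start) were at hand, which was for 33 of the 43 genes. The letters CACGTG, an E-box that MYC and related factors such as MITF can bind, were in a window of 9 of the 33 genes (27.3%), against 8.09% of all 27025 genes with a window. They were in 3 of 11 lower genes (27.3%) and in 6 of 21 genes that did not pass (28.6%), and not in the window of Eif4a2. TGATGNAA, the letters of the site that ATF4 and its partners bind, was searched on both strands and was in no window of the 33 genes, against 4.51% of all genes. CACGTG reads the same on both strands, and the letter searches do not overlap. The 60-base stretches with an E-box before the start of the 3 lower genes, Eif3f, Eif1b and Eif5a2, and of Eif4e and Eif4a1, which did not pass, are printed for comparison. They run 5′ to 3′ on the strand of the gene with the E-box in capitals.
Eif3f, chr7:108934320-108934379, plus strand: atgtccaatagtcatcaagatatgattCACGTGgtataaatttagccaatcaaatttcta
Eif1b, chr9:120492546-120492605, plus strand: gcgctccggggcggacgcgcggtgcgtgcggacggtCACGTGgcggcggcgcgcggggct
Eif5a2, chr3:28781108-28781167, plus strand: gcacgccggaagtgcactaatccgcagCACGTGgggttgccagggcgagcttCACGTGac
Eif4e, chr3:138527177-138527236, plus strand: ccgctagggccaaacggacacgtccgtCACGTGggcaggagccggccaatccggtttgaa
Eif4a1, chr11:69672580-69672639, minus strand: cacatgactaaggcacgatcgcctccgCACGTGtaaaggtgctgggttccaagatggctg
The E-box of Eif3f begins 68 bases before the transcript start, that of Eif1b 24 bases, that of Eif4e 64 bases and that of Eif4a1 189 bases. Eif4e has a second E-box further from the start, and the stretch of Eif5a2 holds 2, the first of which begins 142 bases before. Lower genes and genes that did not pass thus carried these letters in close shares per gene. The 11 lower genes had 11 windows and the 21 that did not pass had 33, so unlike amounts of promoter were searched. The 33 genes together had 45 windows and all 27025 genes had 32851, and these sets were not matched on windows or on brightness. A match in letters does not show that a factor binds there.

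Genes of the neighbouring steps were counted in lists. Of 9 measured elongation genes 5 fell and none rose, against the 10.6% of all genes that were lower. These were Eef1a1 (-0.13 ± 0.033, limma adjusted p = 0.0189), which brings aminoacyl-tRNA to the ribosome, Eef1b2 (-0.13), which recharges it with GTP, the translocase gene Eef2 (-0.12 ± 0.034, limma adjusted p = 0.0217), its inhibitory kinase gene Eef2k (-0.44 ± 0.092, limma adjusted p = 0.00534), and Tsfm (-0.45 ± 0.074, limma adjusted p = 0.00117), an elongation factor of mitochondria. Eef1a1 no longer passed without non-Exercise array 327 or 329, Eef2 without non-Exercise array 330, and Eef1b2 after removal of Exercise tumour 300, 301, 306 or 309 or of non-Exercise tumour 326, 327 or 329 (adjusted p up to 0.0591, 0.0541 and 0.132; smallest changes -0.11, -0.11 and -0.11). The count of 5 was 3 without non-Exercise array 327 or 329, and 2 in the table as deposited or without the intensity trend. Eef1g, Pabpc4 and Rps6kb1 were listed and are not analysed here. Of 9 measured termination and recycling genes and 4 helicases, none passed in limma (1 and 1 at an unadjusted p under 0.05). Of the enzymes that make hypusine on eIF5A, Dohh fell by 0.44 ± 0.084 on the log2 scale (limma adjusted p = 0.00313), and Dhps had a change of 0.25 that did not pass.

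Of 7 measured poly(A)-binding genes and partners, 3 fell and 1 rose, where 10.6% of all genes fell and 6.35% rose. Larp1, which encodes a protein that binds the caps of mRNAs for ribosomal proteins and translation factors under the control of mTORC1, lay at 12.04, 11.93, 12.10, 11.95 and 11.94 in Exercise tumours, against 11.48, 11.45, 11.46, 11.61 and 11.65 in non-Exercise tumours. Every Exercise array lay above every non-Exercise array. The change was 0.46 ± 0.056 (limma adjusted p = 0.000211), and it still passed after removal of any 1 array (log2 change 0.43 to 0.49, adjusted p 0.000208 to 0.00115). Pabpc1 (-0.17), the poly(A)-binding protein gene, Paip2b (-0.37), which encodes an inhibitor of it, and Gigyf2 (-0.17), which encodes a partner of eIF4E2 in repression, fell, and Gigyf2 did not pass after removal of Exercise tumour 300 or 310 or of non-Exercise tumour 326, 327 or 330 (adjusted p up to 0.0842; smallest change -0.16). The count of 3 lower genes was 2 after removal of tumour 300, 310, 326, 327 or 330, 1 without the intensity trend, 1 without Exercise arrays 306, 309 and 310, 1 with the hepatocyte covariate, 0 with the leukocyte covariate in limma, and 5 with arrays centred on their medians. Of 10 measured genes of the mTORC1 and MAP kinase input to eIF4E, 3 rose and 2 fell, against the same shares of all genes. Those that rose were Mtor (0.28 ± 0.055, limma adjusted p = 0.00375), Rptor (0.29 ± 0.053, limma adjusted p = 0.00227), which encodes raptor, and Tsc1 (0.18), which encodes a restraint on mTORC1. Those that fell were Akt1s1 (-0.37 ± 0.079, limma adjusted p = 0.00616), whose product inhibits mTORC1, and the S6 kinase gene Rps6kb2 (-0.39 ± 0.066, limma adjusted p = 0.00137). Tsc1 did not pass after removal of Exercise tumour 306 or 309 or of non-Exercise tumour 326, 327, 329 or 330 (adjusted p up to 0.0744; smallest change 0.16). Without Exercise arrays 306, 309 and 310 the limma count was 1 higher and 2 lower, since Mtor (0.22, adjusted p = 0.0658) and Tsc1 (0.15, adjusted p = 0.186) did not pass. It was 2 higher and 2 lower with the hepatocyte covariate, and 0 and 0 with the leukocyte covariate.

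Of 6 genes of eIF2 kinases and phosphatase subunits, Eif2ak3, which encodes the kinase PERK, fell by 0.31 ± 0.095 on the log2 scale (limma adjusted p = 0.0349), and it did not pass after removal of Exercise tumour 300, 306 or 309 or of non-Exercise tumour 326, 327, 329 or 331 (log2 change -0.37 to -0.24, adjusted p 0.0151 to 0.0885 over all such removals). It did not pass either without Exercise arrays 306, 309 and 310 (-0.27, limma adjusted p = 0.115), with the hepatocyte covariate (-0.26, limma adjusted p = 0.196) or with the leukocyte covariate (-0.19, limma adjusted p = 0.657). The other 5 genes of the list did not pass, with changes of -0.23 to 0.26. Of 59 cytosolic ribosomal protein genes, 12 fell (20.3%) and 1 rose (1.69%), where 10.6% of all genes fell and 6.35% rose. Of the 59 genes 55 lay in the brightest 25% of all genes, and 11 of these 55 fell, where 17.9% of the whole brightest 25% did. The share of 20.3% is near that 17.9%, and genes were not matched more closely on brightness. The lower gene with the smallest p was Rpl7 (-0.27 ± 0.038, limma adjusted p = 0.000476), and the higher gene was Rpl29 (0.16 ± 0.045, limma adjusted p = 0.0243), which did not pass after removal of Exercise tumour 300 or of non-Exercise tumour 327, 329 or 330 (adjusted p up to 0.0636; smallest change 0.14). The 12 lower ribosomal protein genes were 8 without Exercise array 309, 7 without non-Exercise array 326, 5 without 327 and 6 without 329, and 7 without the intensity trend. The median change of the ribosomal protein genes was -0.031. The share of lower genes was thus 27.9% for initiation factors and 20.3% for ribosomal proteins, and whether these shares differ was not tested.

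Leukocyte markers moved with the groups. Of 10 markers (Ptprc, Cd53, Laptm5, Coro1a, Itgb2, Tyrobp, Fcer1g, Cd68, Csf1r and Cd52) 9 were higher in the Exercise arrays and none was lower. Their mean level was 10.72, 9.86, 10.51, 11.24 and 11.26 in Exercise tumours, against 9.70, 9.86, 9.82, 9.42 and 9.72 in non-Exercise tumours. The mean level of the 12 lower members was 11.25, 11.24, 11.25, 11.16 and 11.14 in Exercise tumours, against 11.47, 11.51, 11.51, 11.47 and 11.38 in non-Exercise tumours. The 2 Exercise arrays with the highest leukocyte markers, 309 and 310, thus had the lowest means of these members, and in each of them all 12 genes lay below all non-Exercise arrays. Exercise array 301 had a mean leukocyte level at the top of the non-Exercise range, but its markers were mixed. Cd53, Itgb2, Tyrobp, Fcer1g and Cd68 lay above all non-Exercise arrays there, and Coro1a lay below all of them. Ptprc, Laptm5, Csf1r and Cd52 lay within the non-Exercise range. In array 301, 10 of the 12 lower genes lay below all non-Exercise arrays. In arrays 300 and 306 the number was 8 and 9 of 12. These 12 genes were chosen for being lower, so the counts are a description. Of the other marker lists, none of 5 measured adipocyte, 5 skeletal muscle and 5 keratinocyte markers passed in limma, while the muscle mean was 7.51 to 10.50 in Exercise tumours and 8.15 to 9.19 in non-Exercise ones, and 1 of 11 hepatocyte markers was higher. The part of muscle and adipocyte content in the results was not tested.

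**Figure D4:**
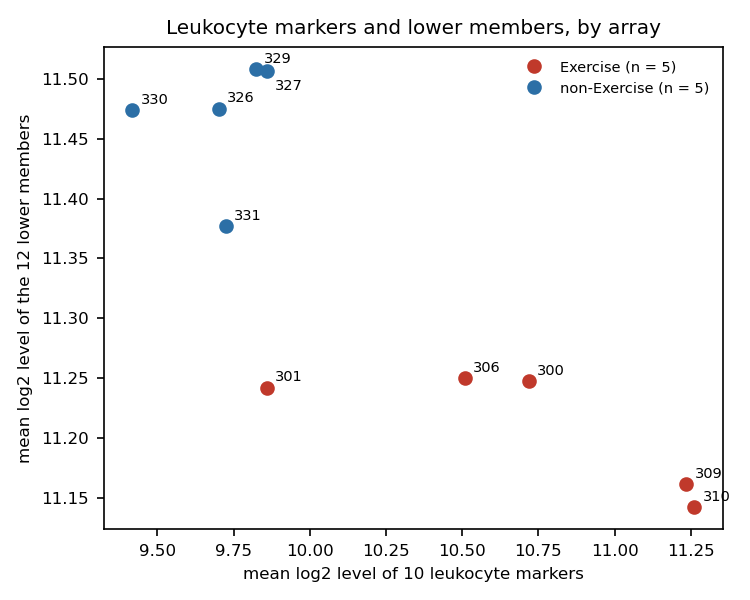
Each point is 1 array, with the mean log2 level of 10 leukocyte markers on the horizontal axis and the mean log2 level of the 12 lower members on the vertical axis. Exercise array 301 lies at the mean marker level of the highest non-Exercise array (9.86), though its single markers were mixed. It lies at 11.24 for the lower members, against 11.38 to 11.51 in the non-Exercise arrays.

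Without Exercise arrays 306, 309 and 310, which held the hepatocyte transcripts, Eif3f (-0.38), Eif3c (-0.28), Eif4b (-0.25), Eif2b4 (-0.34) and Eif2b2 (-0.24) were still lower with a call, and Eif4a2 was higher (0.44) together with Eif5 (0.27) and Eif1a (0.25). That is 5 lower and 3 higher genes of 43, or 11.6% and 6.98%, where 8.06% and 3.74% of all genes were lower and higher. The other 7 of the 12 lower genes had negative changes that did not pass: -0.23 for Eif5a2, -0.23 for Eif4ebp2, -0.17 for Eif1ad, -0.16 for Eif2s2, -0.14 for Eif1b, -0.14 for Eif3h and -0.12 for Eif5b. With the hepatocyte score as covariate Eif3f, Eif3c and Eif4b were lower and Eif4a2 was higher. The 3 lower genes were 6.98% of the 43, near the 6.82% of all genes that were lower in that fit. Of all genes 2.87% were higher. With the leukocyte score as covariate, which itself differed between the groups, no member passed in limma (6 were lower and 0 higher at an unadjusted p under 0.05), where 0.466% and 0.191% of all genes did. All 12 lower members still had negative changes in that fit, from -0.059 for Eif5b to -0.32 for Eif2b4. Eif3f was at -0.29 (limma adjusted p = 0.0980), Eif4ebp2 at -0.30 and Eif4a2 at 0.17. Of the neighbouring genes Larp1 was still higher with a call in that fit (0.51, limma adjusted p = 0.0324). The 5 lower elongation genes were 1 without the 3 arrays, 2 with the hepatocyte covariate and 0 with the leukocyte covariate in limma, and the 12 lower ribosomal protein genes were 5, 3 and 0 in the same order.

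**Figure D5:**
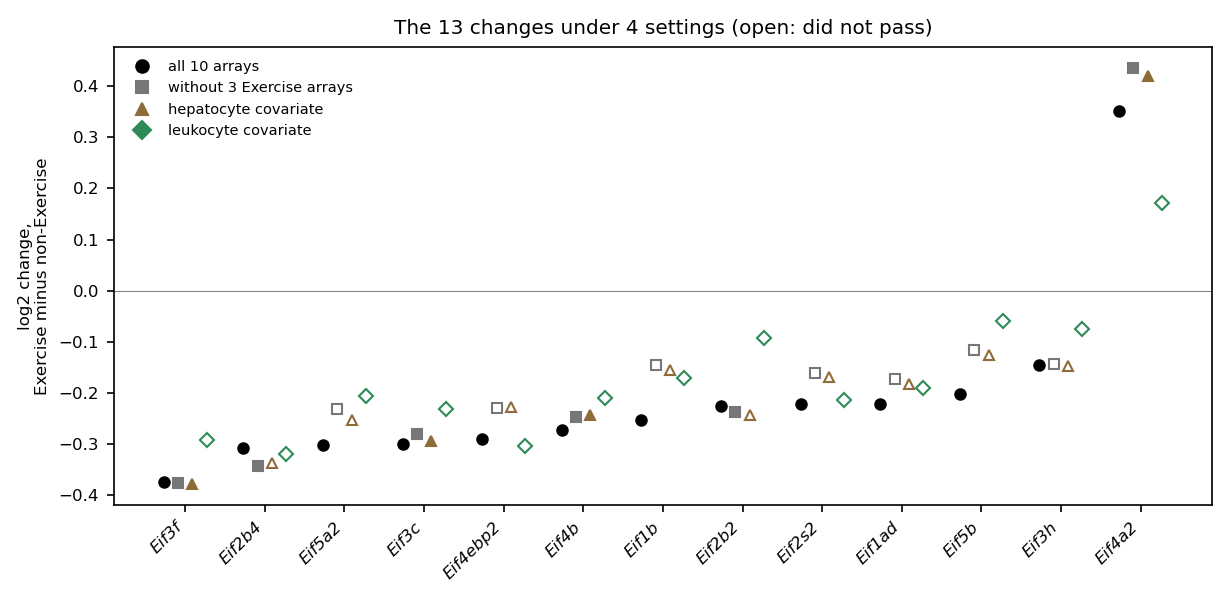
The log2 change of the 13 genes that passed (vertical axis, Exercise minus non-Exercise) is drawn for all 10 arrays, without Exercise arrays 306, 309 and 310, and with the hepatocyte or the leukocyte score as covariate, and open symbols did not pass. All 13 keep their direction in the 4 fits, and Eif3f, Eif3c, Eif4b and Eif4a2 are filled in the first 3.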

How the data were processed

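Biotin-labelled cDNA of 10 melanoma tumour samples was hybridised to Affymetrix arrays that cover whole transcripts, per the labels' protocols. The values were summarised with PLIER, per the submitters' processing notes, which name no version. The deposited table holds a value per probe set between 4.66 and 14.55, taken as log2 from its range. No source used here states the base, a constant added before the log or how arrays were scaled. Array medians spread over 0.126, and quantile normalization was applied (limma 3.58.1, R 4.3.3). The platform annotation gave a single symbol to 21789 of 35556 probe sets. The probe set with the highest mean stood for a gene. Which probe sets may also bind copies of a gene is not given. For Eif2s2, Eif3m, Eif4a1, Eif4e, Eif4e1b, Eif4enif1 and Eif5a the probe set used was the brightest of several. The one used for Eif4a1, a gene of chromosome 11, is numbered between those of Eif1ad and Eif3a on chromosome 19. That of Eif4e, a gene of chromosome 3, is numbered nearest to Eif1ax on chromosome X. Those of Eif3m and Eif5a are likewise numbered away from other members of their chromosomes. These may read copies, and whether a probe set reads the gene itself or a copy was not tested.

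The comparison used lmFit and eBayes (two-sided, variances following an intensity trend) and Benjamini-Hochberg adjustment over 19938 genes at 0.05. Members, lists and alternatives were chosen with earlier results of these data known. Every member is accounted for; values per array are given for the 12 largest changes that passed and for fixed members. One fixed list entry, Ligatin, is an older name of Eif2d and was not counted as measured. Promoter windows come from RefSeq, GRCm38.p6. Code was tested on simulated data. No 2 arrays shared more than 1 value. Scan dates were not used here.

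Alternatives were the table as deposited, median centring, leaving out the dimmest 25% of genes, the mean of probe sets, a fit of probe sets, no trend, robust variances, array weights, a threshold of 0.10, covariates, and leaving out 1 or 3 arrays. Plots were made in matplotlib 3.10.9 (Python 3.11.15).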

Additional observations from a re-analysis of the deposited data

Results flagged for a closer look

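In 8 of 86 groups of 5 arrays (43 genes in each group) 1 array stood apart by a gap of over 0.71 of the range of its group, where chance gives about 1 in 20 groups. In the Exercise group these were Eif1ax in array 300 (11.43, others 11.12 to 11.17), Eif2b4 in array 306 (9.97, others 9.73 to 9.78), Eif3m in array 310 (10.95, others 11.29 to 11.40) and Eif4h in array 310 (12.46, others 12.57 to 12.61). In the non-Exercise group they were Eif1a in array 329 (10.99, others 10.87 to 10.90), Eif4e3 in array 326 (10.40, others 10.28 to 10.31), Eif4ebp2 in array 331 (11.47, others 11.69 to 11.76) and Eif5 in array 331 (11.79, others 11.54 to 11.59). Of these genes Eif2b4 and Eif4ebp2 passed, and without the array that stood apart their changes were -0.35 and -0.34 and both passed.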

How the results depend on the processing

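The count of 12 lower initiation factor genes was 9 to 16 with the other scalings, a filter on dim genes, averaged probe sets, the fit of single probe sets, the other variance models, array weights and the threshold of 0.10. It was 5 without the 3 Exercise arrays with hepatocyte transcripts, where 8.06% of all genes were lower. It was 3 with the hepatocyte score as covariate, where 6.82% were, and 0 with the leukocyte score as covariate, where 0.466% were. With 1 array left out it was 5 to 12, where 7.20% to 11.7% of all genes were lower. The count of 1 higher gene was 0 with arrays centred on their medians, without the intensity trend and with the leukocyte covariate, 3 without the 3 arrays, and 0 to 1 with 1 array left out. The fit without the 3 arrays used fewer samples, and the cause of the losses was not tested in any of these fits. The median change of -0.054 was -0.14 with arrays centred on their medians, -0.082 in the table as deposited, -0.032 without the 3 arrays, -0.039 with the hepatocyte covariate, -0.027 in the fit of single probe sets, 0.014 with the leukocyte covariate and -0.078 to -0.035 with 1 array left out. For single members 815 of 902 repeats left direction and call as they were, 79 lost a call, 8 gained one and none turned a called direction, and 24 of the 30 genes that did not pass gained no call in any of them. No paired analysis was possible because the groups share no replicate number. The number of arrays limits which small changes can pass, and dim members such as Eif4a3l1 give the least signal over background.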

Other observations

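Probe sets whose annotation names several genes were outside the comparison. Of these, 2 probe sets shared by Eif3j1 and Eif3j2, the genes of a loosely bound eIF3 subunit, changed by -0.034 and 0.052. A probe set shared by Eif5 and the small RNA gene Snora28 changed by 0.051. A probe set shared by Ankhd1 and Eif4ebp3 changed by -0.00456. The 2 probe sets shared by Eif4a3 and its copy Eif4a3l1 changed by -0.016 and 0.047. The 4 probe sets shared by Eif1a and a family of predicted copies changed by 0.11 to 0.13, next to 0.10 for the probe set with Eif1a alone. None of these probe sets passed in the limma fit over all probe sets (adjusted p 0.499 to 0.983).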
